A study of Mus musculus with 7 samples.

Results

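Solute carriers are the membrane proteins that move amino acids, sugars, ions, metals, nucleotides and other small molecules into and out of cells and organelles. Their genes carry the symbol Slc with a family number. The carriers were described here in OT-I cells, CD8 T cells with 1 transgenic receptor for a peptide of chicken ovalbumin. Members were genes with a symbol of this form and a log2 level of at least 5 on at least 2 of the 7 arrays, each read from the probe set whose mean over the arrays was highest. They were thus chosen by their measured levels. Of 347 such genes on the array, 134 from 39 families met the level, 212 did not, and the red cell exchanger Slc4a1 was left out by name. The level was read on all arrays together, so it used no contrast between groups, but a gene that met it in 1 group alone had to differ between groups.

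The study asked how CD8 T cells that divide on their way to deletion differ from cells that divide during priming or in an empty host. Naive CD44lo OT-I cells with the Ly5.1 marker were labelled with CFSE, a dye diluted at each division, and injected into C57BL/6 hosts of 4 kinds; every group, the control included, carries the OT-I receptor, CFSE and the transfer itself. The naive group (n = 2) was undivided cells from the spleens of B6 hosts without ovalbumin after 60 h. The RIP-OVAhi group (n = 2) was cells that had divided at least 2 times by 60 h in hosts that make ovalbumin under the rat insulin promoter, a model of deletional tolerance. These cells were taken from the sacral and pancreatic nodes, so tissue and host cannot be told apart for them. The OCS/LPS group (n = 2) was divided cells from the spleens of hosts primed with ovalbumin-coated splenocytes and lipopolysaccharide, also at 60 h. The Rag group (n = 1) was divided cells from the spleens of Rag-/- hosts, which lack their own T and B cells, after 5 days; time and host cannot be told apart for it, and it has no replicate. The RNA of 10 mice was pooled for each array, and that of 20 mice for each RIP-OVAhi array.

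Carriers set which nutrients a T cell can take up and how its mitochondria exchange metabolites with the cytosol. In activated T cells the best known are the amino acid exchanger made of Slc3a2 and Slc7a5, the glutamine carriers Slc1a5, Slc38a1 and Slc38a2, the glucose carriers Slc2a1 and Slc2a3, and the lactate carrier Slc16a1. Most members of the Slc25 family sit in the inner mitochondrial membrane. Slc30 and Slc39 export and import zinc, and Slc35 supplies the Golgi with nucleotide sugars for glycosylation.

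Levels are log2 values on the GCRMA scale, and levels of different genes were not set against each other. The arrays had medians of 2.97 to 3.08, and 33.7% to 34.5% of probe sets lay at 5 or more. All 6 T cell markers (Cd3d, Cd3e, Cd3g, Cd8a, Cd8b1, Thy1) were at 9.94 or more on every array. The naive arrays were less alike than other pairs, with 347 genes over 2-fold apart against 28 in RIP-OVAhi and 31 in OCS/LPS. Markers of other cells differed between groups. Of 8 macrophage and monocyte markers, 2 and 3 reached 5 on the naive arrays, 0 on both RIP-OVAhi arrays, 2 on both OCS/LPS arrays and 5 on the Rag array, with a log2 summed level of 8.39 and 9.07, 6.14 and 5.99, 8.04 and 8.69, and 10.00. Of 4 MHC class II genes, 4 and 3 reached 5 on the naive arrays, 0 on both RIP-OVAhi arrays and 4 on the OCS/LPS and Rag arrays, with a log2 summed level of 7.66 and 7.68, 5.57 and 5.78, 7.65 and 8.40, and 9.16. The macrophage gene Csf1r was at 8.51 on the Rag array and between 2.44 and 2.56 elsewhere. Of the B cell and plasma cell markers, Cd79a was between 2.14 and 2.24 on every array, but the plasma cell gene Jchain was at 7.07 and 6.93 on the naive, 1.65 and 2.28 on the RIP-OVAhi, 8.01 and 8.45 on the OCS/LPS and 1.65 on the Rag arrays. The log2 summed level of the 4 measured genes of that list was 8.24 and 8.93, 8.01 and 8.54, 9.19 and 9.64, and 7.08 in the same order. The highest of the 4 stood at 7.10 and 8.27 on the naive, 8.18 and 8.45 on the OCS/LPS and 6.84 on the Rag arrays. On the RIP-OVAhi arrays the highest stood at 7.89 and 8.43 and was not Jchain.

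Against naive cells, the divided OT-I cells of RIP-OVAhi and OCS/LPS hosts changed carriers in both directions. The monocarboxylate family gene Slc16a5 and the lysosomal membrane protein Slc49a4 fell furthest. The purine nucleobase carrier Slc43a3 and the mitochondrial ATP-magnesium/phosphate carrier Slc25a24 rose furthest. Of the best known nutrient carriers, the amino acid exchanger subunit Slc3a2 and the glutamine carrier Slc38a2 fell. The probe sets of Slc38a2 did not move alike. The other exchanger subunit, Slc7a5, and the glucose carriers Slc2a1 and Slc2a3 did not pass the test. Nor did the glutamine carriers Slc1a5 and Slc38a1 and the lactate carrier Slc16a1. In RIP-OVAhi against naive, 14 members were higher and 21 lower of 134, at a limma p-value adjusted by Benjamini-Hochberg under 0.05 over 8203 tested genes. In OCS/LPS against naive, 16 were higher and 18 lower. With each array centred on its median these counts were 17 higher and 18 lower, and 21 higher and 17 lower. The share of all tested genes called after centring was not counted, so the centred counts are no result about carriers.

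The counts without centring have to be read against all tested genes. Of these, 29.6% were called in RIP-OVAhi against naive (18.1% higher, 11.6% lower) and 32.9% in OCS/LPS against naive (20.5% higher, 12.3% lower). The members' shares were 10.4% higher and 15.7% lower in RIP-OVAhi, and 11.9% higher and 13.4% lower in OCS/LPS. The median member differed from naive by -0.03 in RIP-OVAhi and 0.02 in OCS/LPS, beside 0.06 and 0.08 for all tested genes. In Rag against naive, 2 members were higher and 0 lower, with 2.73% of all tested genes called (2.15% higher, 0.585% lower). In RIP-OVAhi against OCS/LPS, 1 member was higher and 0 lower, with 2.91% of all tested genes called (1.61% higher, 1.3% lower). In RIP-OVAhi against Rag, 7 were higher and 23 lower, beside 16.7% of all tested genes (9.84% higher, 6.9% lower). In OCS/LPS against Rag, 9 were higher and 18 lower, beside 18.1% of all tested genes (11.2% higher, 6.9% lower). Comparisons that share the naive or the Rag array are not independent of each other, and their values are given side by side only.

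**Figure D1:**
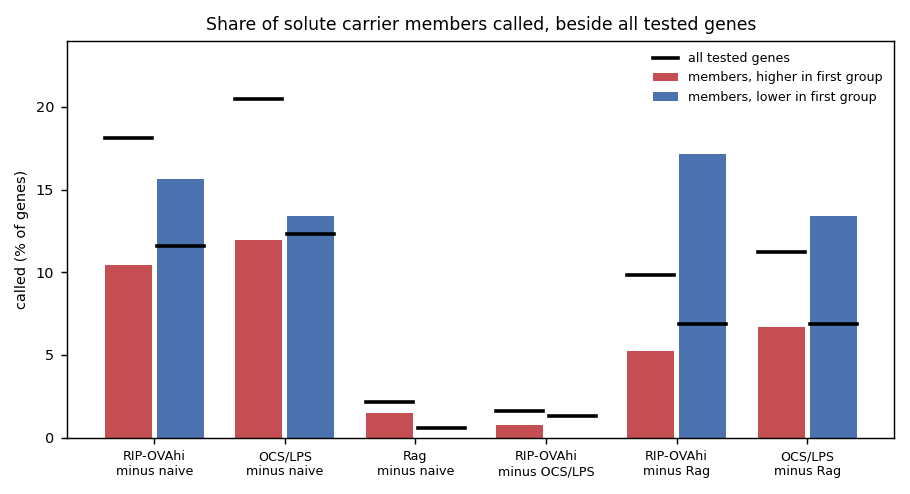
Bars give the percent of the 134 solute carrier genes called higher (red) or lower (blue) in the first group of each comparison, and black lines give the percent of all 8203 tested genes called in the same direction. In RIP-OVAhi against naive the blue bar stands at 15.7% with its line at 11.6%, and the red bar at 10.4% with its line at 18.1%.

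Of the members, 121 were at 5 or more on every array and 13 were not. Among the 121, 10 were higher and 19 lower in RIP-OVAhi against naive, and 12 were higher and 15 lower in OCS/LPS against naive. Of all 7478 genes at that level on every array, 15.8% were higher and 10.8% lower in RIP-OVAhi, and 18.5% higher and 11.7% lower in OCS/LPS. Of the 13, Slc25a10 met the level on the OCS/LPS arrays alone, Slc29a1 and Slc39a4 on arrays of both antigen-driven groups, Slc43a3 on every array but the naive ones, and Slc16a5 and Slc25a27 on naive and Rag arrays alone, so the direction of these 6 is partly set by the choice of members. Just inside the level were Slc16a13, Slc25a27, Slc25a10 and Slc39a4, whose second highest array was at 5.05, 5.06, 5.13 and 5.21. Just outside were Slc22a16, Slc2a9, Slc30a3 and Slc16a10, at 4.87, 4.85, 4.78 and 4.76. In all, 56 members (41.8%) were called in at least 1 of the 6 comparisons and 78 in none, beside 43.1% of all tested genes called in at least 1. The symbols Slc7a6os, Slc9a3r1, Slc4a1ap and Slc2a4rg-ps match the rule but encode no carrier, and none of the 4 was called, which leaves 130 carriers.

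**Figure D2:**
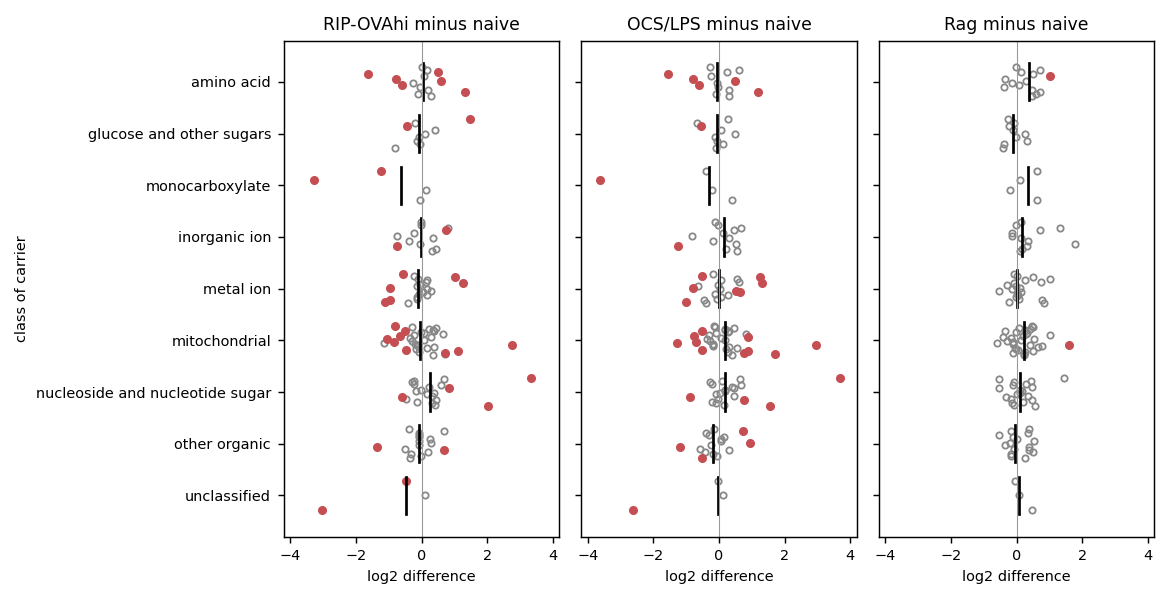
Each point is 1 carrier gene, placed by its log2 difference from naive in RIP-OVAhi, OCS/LPS and Rag cells, with classes of carrier on the vertical axis; filled red points were called and black lines are class medians. Called genes lie on both sides of 0 in most classes, and Rag cells have 2 called genes.

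The promoters of members were searched for the E-box and the core of the amino acid response element, as a description. The E-box, read here as CACGTG (the same letters on both strands), occurred in the 250 bases before the start site of 18 of the 99 members with a RefSeq promoter (18.2%), of 8 of the 35 of those called in RIP-OVAhi or OCS/LPS against naive (22.9%), of 10.8% of 6768 tested genes and of 6.86% of 27025 genes. The core of the amino acid response element, TTGCATCA on either strand, occurred in 1 of the 99 members (1.01%), beside 0.606% of tested genes. A match is a description of the letters and not a site, and a gene without one in this window may hold it elsewhere. The promoters of 5 called members are shown 5′ to 3′ on the gene's strand, with the E-box in capitals; sequences and coordinates are from RefSeq on GRCm38.p6. They are the fallen lysosomal gene Slc49a4 (chr16:35769371-35769620, minus strand), the fallen Golgi carrier gene Slc35a5 (chr16:45158674-45158923, minus strand, 2 matches) and the fallen potassium-chloride carrier gene Slc12a7 (chr13:73763447-73763696, plus strand, 1 of 2 start sites in the table). The other two are the mitochondrial nucleotide carrier gene Slc25a33 (chr4:149774268-149774517, minus strand), which rose in OCS/LPS, and the nucleoside carrier gene Slc29a1 (chr17:45595247-45595496, minus strand, 1 of 8 start sites in the table), which rose in both.
Slc49a4: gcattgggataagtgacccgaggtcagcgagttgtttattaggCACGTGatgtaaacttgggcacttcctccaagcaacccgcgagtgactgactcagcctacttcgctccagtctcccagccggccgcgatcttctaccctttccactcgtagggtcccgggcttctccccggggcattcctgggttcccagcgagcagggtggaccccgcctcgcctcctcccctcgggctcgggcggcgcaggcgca
Slc35a5: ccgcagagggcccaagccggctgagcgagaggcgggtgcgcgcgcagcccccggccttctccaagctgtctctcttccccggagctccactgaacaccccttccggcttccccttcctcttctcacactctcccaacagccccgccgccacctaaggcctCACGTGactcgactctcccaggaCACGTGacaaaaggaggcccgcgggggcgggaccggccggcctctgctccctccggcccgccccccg
Slc12a7: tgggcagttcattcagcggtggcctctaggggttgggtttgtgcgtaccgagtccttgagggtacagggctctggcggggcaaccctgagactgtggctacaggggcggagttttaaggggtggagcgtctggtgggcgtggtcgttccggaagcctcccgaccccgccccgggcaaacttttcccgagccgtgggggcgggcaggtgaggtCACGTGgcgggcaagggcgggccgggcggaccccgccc
Slc25a33: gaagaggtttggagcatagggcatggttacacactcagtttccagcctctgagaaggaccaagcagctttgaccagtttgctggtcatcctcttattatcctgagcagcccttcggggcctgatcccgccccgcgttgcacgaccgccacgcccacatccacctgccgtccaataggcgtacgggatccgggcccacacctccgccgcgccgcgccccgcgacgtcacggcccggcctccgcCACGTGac
Slc29a1: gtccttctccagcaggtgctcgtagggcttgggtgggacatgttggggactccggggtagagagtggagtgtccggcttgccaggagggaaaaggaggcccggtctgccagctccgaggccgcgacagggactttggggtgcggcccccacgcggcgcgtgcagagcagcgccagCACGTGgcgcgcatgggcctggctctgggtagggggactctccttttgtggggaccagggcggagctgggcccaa
The match lies 8 bases before the start site in Slc25a33, 38 in Slc12a7, 75 in Slc29a1, 90 and 67 in Slc35a5 and 207 in Slc49a4. Of these 5 genes, 3 fell and 2 rose. They are a selection from the 8 called members with a match. Slc25a15 and Slc25a36, which fell, and Slc25a14, which rose, are not shown.

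Amino acid carriers (14 members) moved in both directions, with 3 higher and 3 lower in RIP-OVAhi and 2 higher and 3 lower in OCS/LPS against naive. Slc3a2, the heavy chain that the exchangers of large neutral amino acids share, was at 9.06 and 9.09 on the naive arrays, 8.27 and 8.31 on the RIP-OVAhi arrays, 8.31 and 8.23 on the OCS/LPS arrays and 8.72 on the Rag array. All 4 arrays of the antigen-driven groups lay below naive and the Rag array between. It fell by 0.78 (SE 0.11, adjusted p = 0.00528) in RIP-OVAhi and by 0.80 (SE 0.11, adjusted p = 0.00438) in OCS/LPS, 1.72-fold and 1.74-fold. In sorted pools like these, fewer cells that carry a transcript and less of it per cell cannot be told apart. The light chain Slc7a5 was at 6.26 and 5.55 in naive cells, 6.23 and 5.88 in RIP-OVAhi cells, 6.26 and 6.77 in OCS/LPS cells and 6.61 in Rag cells. Its groups overlapped, and its differences from naive of 0.15 (SE 0.29), 0.61 (SE 0.29) and 0.70 (SE 0.36) did not pass the test, with adjusted p from 0.167 to 0.733.

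Of the glutamine carriers, Slc38a2, a sodium-coupled carrier of small neutral amino acids, was at 11.74 and 11.53 on the naive arrays, 10.99 and 11.11 on the RIP-OVAhi arrays, 10.97 and 11.04 on the OCS/LPS arrays and 11.70 on the Rag array. The Rag array lay within the naive pair and the other 4 arrays below it. The fall was 0.58 (SE 0.13, adjusted p = 0.0227) in RIP-OVAhi and 0.63 (SE 0.13, adjusted p = 0.0162) in OCS/LPS; a further probe set of this gene differed by 0.17 and -0.39, so the probe sets did not move alike. Slc1a5 was at 9.95 and 9.08 in naive and between 9.75 and 9.97 on the other arrays. Slc38a1 was at 10.82 and 10.38 in naive and between 10.75 and 11.07 elsewhere. Neither passed the test, and in both the naive arrays were further apart than the other groups' arrays.

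The cationic amino acid carrier Slc7a1 rose by 0.49 in RIP-OVAhi (SE 0.13, adjusted p = 0.0386) from 10.10 and 9.89 to 10.51 and 10.46. It was at 10.18 and 10.32 in OCS/LPS, where the difference of 0.26 (SE 0.13) did not pass the test. With the replicate number in the model the RIP-OVAhi value had an adjusted p of 0.0623. Slc36a4, an amino acid carrier of the Slc36 family, was at 5.40 and 5.14 in naive cells, 6.57 and 6.61 in RIP-OVAhi cells, 6.22 and 6.66 in OCS/LPS cells and 5.99 in Rag cells. It rose by 1.32 (SE 0.19, adjusted p = 0.00474) and 1.18 (SE 0.19, adjusted p = 0.0062), with no overlap between the naive and antigen-driven arrays. Slc6a19, best known as the neutral amino acid carrier of gut and kidney, was at 6.43 and 6.32 on the naive arrays, 5.19 and 4.31 on the RIP-OVAhi arrays, 4.77 and 4.84 on the OCS/LPS arrays and 6.89 on the Rag array. It fell by 1.63 (SE 0.28, adjusted p = 0.00951) and 1.57 (SE 0.28, adjusted p = 0.0096), and the Rag array was above both naive arrays. The lysosomal arginine sensor Slc38a9, named after its values were seen, rose by 0.60 (SE 0.14, adjusted p = 0.026) and 0.48 (SE 0.14, adjusted p = 0.0469, or 0.0721 with the replicate number in the model); of its 3 other probe sets with a mean of 5 or more, 2 moved the same way. Slc36a1 and Slc7a6 were not called against naive in any group. Slc1a4, Slc7a7, Slc7a11 and Slc43a1, amino acid carriers often studied in immune cells, stayed under the level needed and were not tested.

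**Figure D3:**
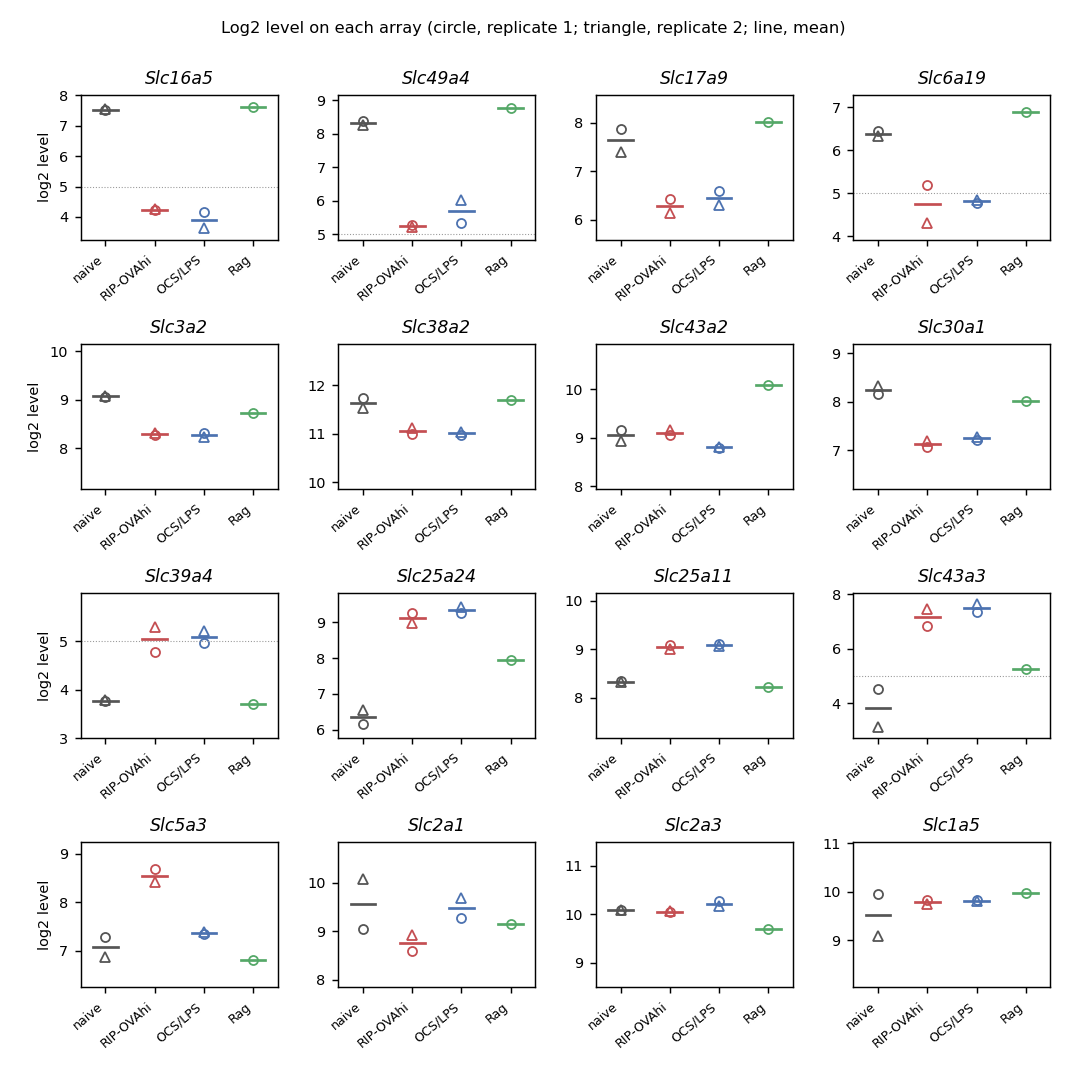
The log2 level of 16 solute carrier genes on each of the 7 arrays, by group; circles are replicate 1, triangles replicate 2, short lines group means and the dotted line the level of 5. Slc16a5 and Slc49a4 are low in RIP-OVAhi and OCS/LPS cells and high in naive and Rag cells. Slc25a24 and Slc43a3 are high in RIP-OVAhi and OCS/LPS cells, low in naive cells and between these on the Rag array. Slc5a3 is high on both RIP-OVAhi arrays.

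Among the 9 carriers of glucose and other sugars, 1 rose and 1 fell in RIP-OVAhi, and 0 rose and 1 fell in OCS/LPS. The main glucose carrier of proliferating cells, Slc2a1, was at 9.04 and 10.08 in naive cells, 8.60 and 8.92 in RIP-OVAhi cells, 9.28 and 9.68 in OCS/LPS cells and 9.14 in Rag cells. Both RIP-OVAhi arrays were below both naive arrays, but the naive arrays were over 1 log2 unit apart. The difference of -0.80 (SE 0.35) did not pass the test (adjusted p = 0.146), and had an adjusted p of 0.0424 with the replicate number in the model. Slc2a3, a high-affinity glucose carrier, was at 10.09 and 10.08 on the naive arrays, 10.04 and 10.06 on the RIP-OVAhi arrays, 10.28 and 10.16 on the OCS/LPS arrays and 9.70 on the Rag array. Its differences from naive of -0.04 (SE 0.12), 0.13 (SE 0.12) and -0.39 (SE 0.14) did not pass the test. Slc50a1, the mouse member of the sugar efflux family SWEET, fell by 0.44 (SE 0.12, adjusted p = 0.0388, or 0.0674 with the replicate number in the model) in RIP-OVAhi and by 0.56 (SE 0.12, adjusted p = 0.0162) in OCS/LPS, from 9.47 and 9.57 in naive to between 8.92 and 9.12.

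Slc5a3, which takes up the osmolyte myo-inositol with sodium, was the member that set the antigen-driven groups apart. It was at 7.30 and 6.87 in naive cells, 8.69 and 8.42 in RIP-OVAhi cells, 7.34 and 7.38 in OCS/LPS cells and 6.81 in Rag cells. Both RIP-OVAhi arrays lay above every other array. It rose by 1.47 against naive (SE 0.18, adjusted p = 0.00315), 2.76-fold, and the difference between RIP-OVAhi and OCS/LPS was 1.19 (SE 0.18, adjusted p = 0.0312), 2.28-fold. Another probe set of the gene differed by 0.66 between RIP-OVAhi and OCS/LPS, in the same direction. The call against OCS/LPS was lost when any 1 of the 4 arrays was left out (difference 1.06 to 1.32, adjusted p 0.207 to 0.285), with the mean of the gene's probe sets (0.66, adjusted p = 0.0819), and with no filter on low values (1.19, adjusted p = 0.14). Tissue differs along with the host in this comparison, and its part was not tested.

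Of the 4 monocarboxylate carriers, 2 fell in RIP-OVAhi and 1 in OCS/LPS. Slc16a5, a member of this family, was at 7.50 and 7.55 on the naive arrays, 4.23 and 4.25 on the RIP-OVAhi arrays, 4.16 and 3.64 on the OCS/LPS arrays and 7.63 on the Rag array. The antigen-driven arrays were all under 5 and the naive and Rag arrays all above 7, and as it met the level needed on the latter alone it had to be lower in the former. It fell by 3.29 (SE 0.19, adjusted p = 0.00016) in RIP-OVAhi and fell by 3.63 (SE 0.19, adjusted p = 8.93e-05) in OCS/LPS, 9.78-fold and 12.4-fold on the GCRMA scale. The Rag array differed from naive by 0.10 (SE 0.23, adjusted p = 0.86). The lactate and pyruvate carrier Slc16a1 was at 10.64 and 10.31 in naive cells, 10.50 and 10.38 in RIP-OVAhi cells, 10.80 and 10.94 in OCS/LPS cells and 11.11 in Rag cells. The OCS/LPS and Rag arrays were above naive, by 0.39 (SE 0.16, adjusted p = 0.106) and 0.63 (SE 0.19, adjusted p = 0.168), short of the threshold. The lactate exporter Slc16a3 stayed between 2.29 and 2.35 on every array.

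Slc16a6, another member of the family, was at 8.68 and 8.34 on the naive arrays, 7.09 and 7.45 on the RIP-OVAhi arrays, 7.98 and 8.25 on the OCS/LPS arrays and 9.12 on the Rag array. Only the RIP-OVAhi value passed the test against naive, a fall of 1.24 (SE 0.20, adjusted p = 0.00691). The OCS/LPS value was -0.39 (SE 0.20, adjusted p = 0.178), and the direct difference of -0.85 (SE 0.20) did not pass (adjusted p = 0.104). The RIP-OVAhi arrays are also those with the lowest macrophage and MHC class II markers, and the part of other cells in this value was not tested.

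Among 12 carriers of inorganic ions, 1 rose and 1 fell in RIP-OVAhi and 1 fell in OCS/LPS. The potassium-chloride carrier Slc12a7 was at 11.13 and 10.50 in naive cells, 10.11 and 10.03 in RIP-OVAhi cells, 9.56 and 9.54 in OCS/LPS cells and 11.14 in Rag cells. The naive and antigen-driven arrays did not overlap. It fell by 0.75 (SE 0.21, adjusted p = 0.0457) in RIP-OVAhi and by 1.26 (SE 0.21, adjusted p = 0.00783) in OCS/LPS; its other probe set differed by 0.13 and -0.56, so only the OCS/LPS direction was shared by both. The chloride-bicarbonate exchanger Slc4a2 was at 6.60 and 6.59 on the naive arrays, 7.51 and 7.18 on the RIP-OVAhi arrays, 7.04 and 7.03 on the OCS/LPS arrays and 7.30 on the Rag array. It rose by 0.75 in RIP-OVAhi (SE 0.15, adjusted p = 0.014), and all other divided arrays were above naive as well, without passing the test. The phosphate carrier Slc20a1 and the sodium-potassium-chloride carrier Slc12a2 were not called in any comparison with naive.

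The sodium-potassium pump maintains the sodium gradient on which many of these carriers run. Of 6 pump genes listed, 2 were tested. Its subunit Atp1b1 was at 10.83 and 10.71 in naive cells, 9.14 and 9.69 in RIP-OVAhi cells, 9.14 and 9.34 in OCS/LPS cells and 11.50 in Rag cells. It fell by 1.35 (SE 0.21, adjusted p = 0.00615) and 1.53 (SE 0.21, adjusted p = 0.00369), and the antigen-driven arrays lay below all naive and Rag arrays. Atp1b3 fell by 0.48 in RIP-OVAhi (SE 0.14, adjusted p = 0.0441) and differed by -0.38 in OCS/LPS, where it was not called.

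The 20 metal carriers showed 2 rises and 4 falls in RIP-OVAhi, and 4 rises and 3 falls in OCS/LPS. Zinc carriers made up most of them. Slc30a1, which exports zinc across the plasma membrane, was at 8.16 and 8.33 on the naive arrays, 7.06 and 7.19 on the RIP-OVAhi arrays, 7.21 and 7.28 on the OCS/LPS arrays and 8.01 on the Rag array. It fell by 1.12 (SE 0.13, adjusted p = 0.0023) and by 1.0 (SE 0.13, adjusted p = 0.00303), with the Rag array next to naive. Slc39a4, a zinc importer of the plasma membrane, was at 3.76 and 3.78 in naive cells, 4.78 and 5.29 in RIP-OVAhi cells, 4.95 and 5.21 in OCS/LPS cells and 3.70 in Rag cells. It rose by 1.27 (SE 0.20, adjusted p = 0.00679) and 1.32 (SE 0.20, adjusted p = 0.00549), but it met the level needed on just 1 array of each antigen-driven group, so it had to be higher there.

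Other zinc importers of the Slc39 family did not move in 1 direction. Slc39a9 was at 6.91 and 6.02 in naive cells, 7.38 and 7.55 in RIP-OVAhi cells and 7.61 and 7.84 in OCS/LPS cells, a rise of 1.0 (SE 0.29, adjusted p = 0.0477, or 0.057 with the replicate number in the model) and 1.26 (SE 0.29, adjusted p = 0.0216). Slc39a11 was at 6.81 and 7.09 on the naive arrays, 5.78 and 6.21 on those of RIP-OVAhi and 5.97 and 6.36 on those of OCS/LPS, a fall of 0.96 (SE 0.22, adjusted p = 0.0223) and 0.79 (SE 0.22, adjusted p = 0.0372). Slc39a1 rose by 0.50 in OCS/LPS alone among the comparisons with naive (SE 0.15, adjusted p = 0.0468, or 0.057 with the replicate number in the model). The vesicular zinc carrier Slc30a4 was at 8.50 and 8.62 on the naive arrays, 7.43 and 7.73 on the RIP-OVAhi arrays, 8.03 and 8.15 on the OCS/LPS arrays and 9.32 on the Rag array. It fell by 0.98 in RIP-OVAhi (SE 0.15, adjusted p = 0.00615), and the OCS/LPS value of -0.46 (SE 0.15) had an adjusted p of 0.0595. RIP-OVAhi cells were lowest and Rag cells highest, as for the summed macrophage and MHC class II markers, whose part was not tested. The iron carrier Slc11a2 was at 7.78 and 7.12 in naive, between 6.90 and 7.16 in the antigen-driven groups and 8.29 in Rag cells, and was not called against naive.

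The mitochondrial class, made of the 32 members of Slc25, had 3 rises and 6 falls in RIP-OVAhi, and 5 rises and 5 falls in OCS/LPS. Slc25a24, which exchanges ATP-magnesium for phosphate and is activated by calcium, was at 6.17 and 6.55 in naive cells, 9.24 and 8.98 in RIP-OVAhi cells, 9.24 and 9.41 in OCS/LPS cells and 7.95 in Rag cells. Every divided array was above both naive arrays, and the Rag array lay between naive and the antigen-driven arrays. It rose by 2.75 (SE 0.18, adjusted p = 0.000281) in RIP-OVAhi, by 2.97 (SE 0.18, adjusted p = 0.000179) in OCS/LPS and by 1.59 (SE 0.22, adjusted p = 0.0244) in Rag cells, 6.73-fold, 7.82-fold and 3.0-fold. It was also higher in RIP-OVAhi than in Rag cells by 1.16 (SE 0.22, adjusted p = 0.0208) and in OCS/LPS than in Rag cells by 1.38 (SE 0.22, adjusted p = 0.0124). The Rag call against naive was lost when any 1 RIP-OVAhi or OCS/LPS array was left out (adjusted p 0.0964 to 0.101) with the mean of the gene's probe sets (0.66, adjusted p = 0.109), and with no filter on low values (adjusted p = 0.0813).

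The oxoglutarate-malate carrier Slc25a11, part of the malate-aspartate shuttle, was at 8.34 and 8.33 on the naive arrays, 9.08 and 9.02 on the RIP-OVAhi arrays, 9.10 and 9.07 on the OCS/LPS arrays and 8.23 on the Rag array. It rose by 0.72 (SE 0.11, adjusted p = 0.0066) and 0.75 (SE 0.11, adjusted p = 0.00512), with the Rag array below naive. Slc25a14, related to the uncoupling proteins, rose by 1.11 (SE 0.18, adjusted p = 0.0078) and 0.87 (SE 0.18, adjusted p = 0.0155), from 7.10 and 7.29 in naive to between 7.98 and 8.51. The dicarboxylate carrier Slc25a10 was at 3.55 and 4.24 in naive cells, 4.61 and 4.61 in RIP-OVAhi cells, 5.13 and 6.08 in OCS/LPS cells and 4.12 in Rag cells. Its OCS/LPS difference from naive was 1.71 (SE 0.36, adjusted p = 0.0157), and as it met the level needed on these arrays alone it had to be higher there. Slc25a33, which carries pyrimidine nucleotides, was at 5.62 and 6.34 on the naive arrays, 6.29 and 6.23 on the RIP-OVAhi arrays, 7.0 and 6.75 on the OCS/LPS arrays and 5.56 on the Rag array, and rose by 0.90 in OCS/LPS (SE 0.25, adjusted p = 0.0384).

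On the other side, Slc25a30 was at 6.74 and 6.09 in naive cells, 5.60 and 5.14 in RIP-OVAhi cells, 6.05 and 6.05 in OCS/LPS cells and 6.94 in Rag cells, and fell by 1.04 in RIP-OVAhi (SE 0.26, adjusted p = 0.028). Slc25a53 was at 8.25 and 8.58 on the naive arrays, 7.57 and 7.66 on the RIP-OVAhi arrays, 8.34 and 8.18 on the OCS/LPS arrays and 8.89 on the Rag array. It fell by 0.80 in RIP-OVAhi (SE 0.15, adjusted p = 0.0136) and was -0.16 in OCS/LPS, while the direct difference of -0.64 (SE 0.15) did not pass (adjusted p = 0.113). For both genes the RIP-OVAhi arrays were the lowest, as they were for the macrophage and MHC class II markers, whose part was not tested. Slc25a27 was at 6.15 and 5.06 in naive and between 4.05 and 4.59 in the antigen-driven groups. Its difference was -1.28 in OCS/LPS (SE 0.38, adjusted p = 0.0468) and -1.16 in RIP-OVAhi (adjusted p = 0.0678, or 0.0171 with the replicate number in the model), and it met the level needed through naive and Rag arrays alone, which partly sets the direction.

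The carriers best known for exchanging ADP with ATP and for exporting citrate were not called. The ADP/ATP carriers Slc25a4 and Slc25a5 were between 12.57 and 13.00 and between 13.14 and 13.84 on all arrays. Slc25a5 differed from naive by 0.45 (SE 0.16, adjusted p = 0.085) in RIP-OVAhi and 0.46 (SE 0.16, adjusted p = 0.0712) in OCS/LPS. The citrate carrier Slc25a1 differed by 0.36 (SE 0.15, adjusted p = 0.132) and 0.39 (SE 0.15, adjusted p = 0.0974). The iron carrier Slc25a37 was at 8.06 and 6.96 in naive, between 7.13 and 7.28 in the antigen-driven groups and 8.52 in Rag cells, so the naive pair spanned most of the range.

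Carriers under other symbols, mitochondrial or not, were counted in a list of 25. Of these 15 were tested, with 2 higher and 3 lower in RIP-OVAhi, 5 higher and 3 lower in OCS/LPS and 1 higher and 0 lower in Rag cells against naive, beside 29.6%, 32.9% and 2.73% of all tested genes called. Mtch1, a carrier homologue of the outer mitochondrial membrane, was at 7.46 and 7.19 in naive cells, 8.68 and 8.59 in RIP-OVAhi cells, 9.07 and 9.29 in OCS/LPS cells and 8.46 in Rag cells. It rose by 1.31 (SE 0.15, adjusted p = 0.00241), 1.85 (SE 0.15, adjusted p = 0.000548) and 1.14 (SE 0.19, adjusted p = 0.0386), so all divided arrays were above naive. Of the sideroflexins, a family with a mitochondrial serine carrier, Sfxn1 rose by 0.91 in OCS/LPS (SE 0.12, adjusted p = 0.00356). Sfxn2 fell by 1.04 in RIP-OVAhi (SE 0.15, adjusted p = 0.00565) and by 1.12 in OCS/LPS (SE 0.15, adjusted p = 0.00406).

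Among the 20 carriers of nucleosides, nucleobases and nucleotide sugars, 3 rose and 1 fell in each antigen-driven group. Slc43a3, which carries purine nucleobases, was at 4.52 and 3.12 on the naive arrays, 6.85 and 7.46 on the RIP-OVAhi arrays, 7.34 and 7.66 on the OCS/LPS arrays and 5.26 on the Rag array. Every divided array was above both naive arrays. It rose by 3.34 (SE 0.47, adjusted p = 0.00467) in RIP-OVAhi and by 3.68 (SE 0.47, adjusted p = 0.00298) in OCS/LPS, 10.1-fold and 12.9-fold on the GCRMA scale. The Rag value of 1.45 (SE 0.57, adjusted p = 0.266) did not pass. Slc29a1, the equilibrative nucleoside carrier of the plasma membrane, was at 4.64 and 3.32 in naive cells, 6.17 and 5.87 in RIP-OVAhi cells, 5.59 and 5.49 in OCS/LPS cells and 4.55 in Rag cells. It rose by 2.04 (SE 0.41, adjusted p = 0.0153) and 1.56 (SE 0.41, adjusted p = 0.0326). Both genes were under 5 on the naive arrays and met the level needed through divided cells, so their direction is partly set by the choice of members.

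In the Slc35 family, Slc35a5 was at 9.59 and 9.90 on the naive arrays, 9.09 and 9.17 on the RIP-OVAhi arrays, 8.87 and 8.85 on the OCS/LPS arrays and 9.42 on the Rag array. It fell by 0.61 (SE 0.14, adjusted p = 0.0254) and 0.88 (SE 0.14, adjusted p = 0.00714). Slc35d1, which moves UDP-glucuronic acid into the endoplasmic reticulum, rose by 0.83 in RIP-OVAhi (SE 0.17, adjusted p = 0.016), from 4.90 and 5.32 to 5.89 and 5.99; its other probe set differed by -0.28. Slc35a3, the Golgi carrier of UDP-N-acetylglucosamine, rose by 0.75 in OCS/LPS (SE 0.16, adjusted p = 0.0183), from 9.17 and 8.84 to 9.63 and 9.88. The RIP-OVAhi arrays for Slc35a3 were at 9.49 and 9.42, above naive as well, without a call.

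In the 16 carriers of other organic molecules, 1 rose and 1 fell in RIP-OVAhi and 2 rose and 2 fell in OCS/LPS. Slc17a9, which loads ATP into secretory vesicles and lysosomes, was at 7.88 and 7.41 in naive cells, 6.42 and 6.14 in RIP-OVAhi cells, 6.59 and 6.30 in OCS/LPS cells and 8.02 in Rag cells. It fell by 1.36 (SE 0.21, adjusted p = 0.00658) and 1.20 (SE 0.21, adjusted p = 0.00921), and the Rag array was above both naive arrays. The thiamine carrier Slc19a2 was at 5.22 and 5.68 on the naive arrays, 5.77 and 5.72 on the RIP-OVAhi arrays, 6.26 and 6.52 on the OCS/LPS arrays and 5.26 on the Rag array. It rose by 0.94 in OCS/LPS (SE 0.19, adjusted p = 0.0139), while the difference between RIP-OVAhi and OCS/LPS, -0.64 (SE 0.19), did not pass (adjusted p = 0.176). The folate carrier Slc19a1 was not called in any comparison with naive.

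The families of 3 members were in no class of the list used, and these were counted as unclassified. Slc49a4, a lysosomal membrane protein, was at 8.37 and 8.25 in naive cells, 5.30 and 5.23 in RIP-OVAhi cells, 5.35 and 6.03 in OCS/LPS cells and 8.77 in Rag cells. It fell by 3.04 (SE 0.23, adjusted p = 0.000458) and 2.61 (SE 0.23, adjusted p = 0.000707), 8.23-fold and 6.12-fold, and the Rag array was above naive. The summed macrophage and MHC class II markers of OCS/LPS cells overlapped those of naive cells and their summed B cell and plasma cell markers were higher; the part of other cells in this fall and in that of Slc16a5 was not tested. Slc66a2 was at 6.30 and 6.32 on the naive arrays, 5.81 and 5.83 on the RIP-OVAhi arrays, 6.27 and 6.29 on the OCS/LPS arrays and 6.27 on the Rag array. It fell by 0.49 in RIP-OVAhi (SE 0.11, adjusted p = 0.0222), and the direct difference from OCS/LPS, -0.46 (SE 0.11), did not pass (adjusted p = 0.113).

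**Figure D4:**
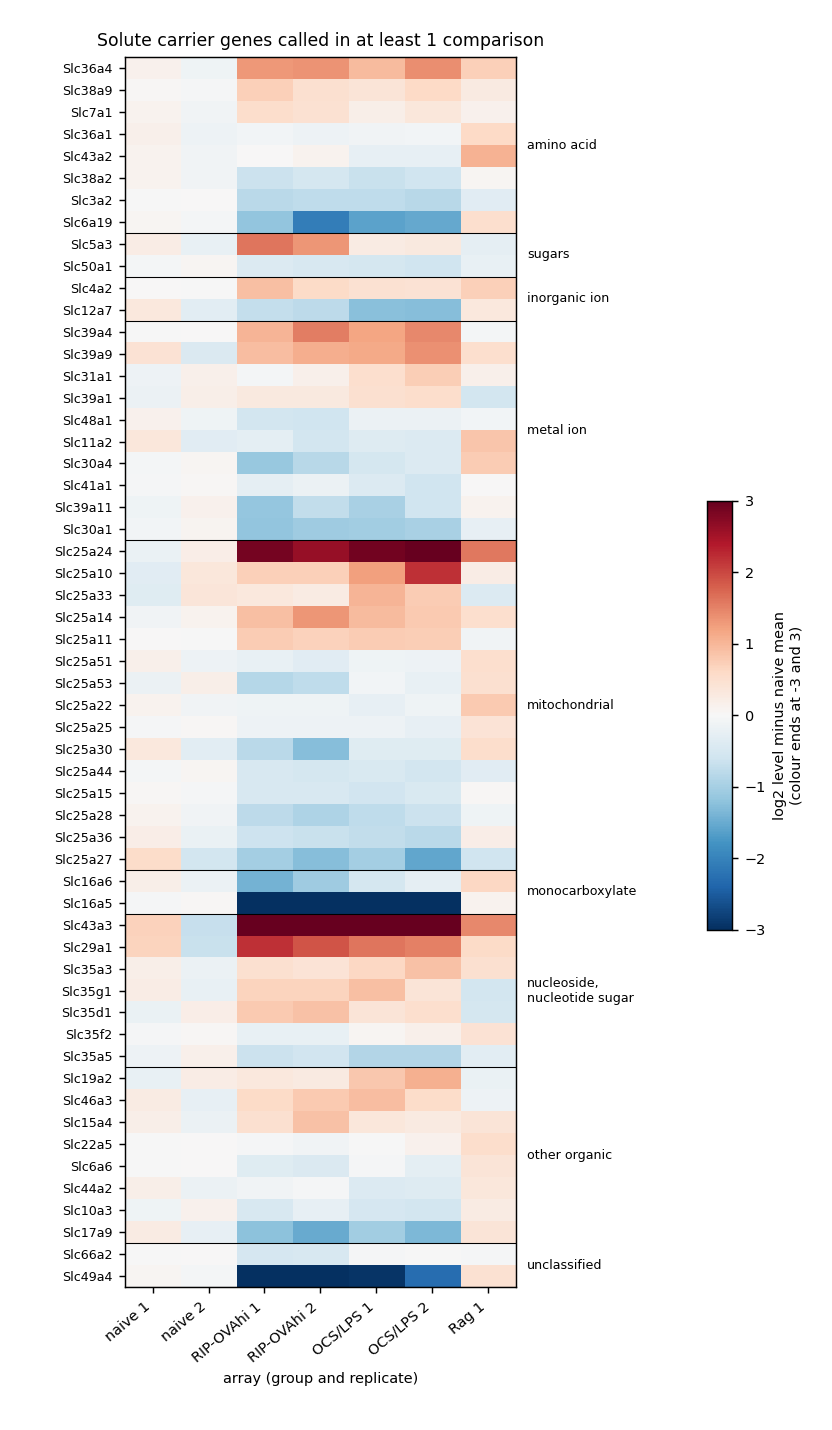
The 56 solute carrier genes called in at least 1 of the 6 comparisons, by class; each cell is the log2 level on 1 array minus the naive mean, and the colour scale ends at -3 and 3. Slc16a5 and Slc49a4 are dark blue in the RIP-OVAhi and OCS/LPS columns and near 0 in the naive and Rag columns, and Slc25a24 and Slc43a3 are dark red in the former.

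Between RIP-OVAhi and OCS/LPS cells, both divided and both driven by ovalbumin, Slc5a3 was the 1 member called of 134. The differences next in p-value were those of Slc16a6 (-0.85), Slc66a2 (-0.46), Slc25a53 (-0.64) and Slc30a4 (-0.51), all lower in RIP-OVAhi and all short of the threshold with adjusted p from 0.104 to 0.170. The members' median difference was -0.01, beside -0.05 for all tested genes. Outside the Slc symbols, Slco4a1, an organic anion carrier, was at 5.34 and 6.08 in naive cells, 6.13 and 5.82 in RIP-OVAhi cells, 7.82 and 7.88 in OCS/LPS cells and 6.52 in Rag cells. It was lower in RIP-OVAhi than in OCS/LPS by a difference of -1.88 (SE 0.26, adjusted p = 0.024), and the OCS/LPS arrays lay above all others. Slco3a1 was at 9.38 and 9.05 on the naive arrays, 7.55 and 7.93 on the RIP-OVAhi arrays, 8.56 and 8.49 on the OCS/LPS arrays and 9.83 on the Rag array, and fell by 1.48 (SE 0.18, adjusted p = 0.00308) and 0.69 (SE 0.18, adjusted p = 0.0336) against naive.

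In Rag cells, 2 members passed the test against naive, Slc25a24 and Slc43a2. Slc43a2, a facilitative carrier of large neutral amino acids, was at 9.16 and 8.94 in naive cells, 9.07 and 9.15 in RIP-OVAhi cells, 8.80 and 8.81 in OCS/LPS cells and 10.08 in Rag cells. The Rag array stood above all others. It was higher by 1.03 against naive (SE 0.16, adjusted p = 0.0322), and RIP-OVAhi and OCS/LPS lay below Rag by -0.97 (SE 0.16, adjusted p = 0.0128) and -1.28 (SE 0.16, adjusted p = 0.00541). The Rag array also had the highest summed level of macrophage markers, and their part was not tested. With the replicate number in the model the call against naive was lost (adjusted p = 0.0746). The test treats the single Rag array as if it varied like the others. The number of called members in this comparison moved with the naive array left out. The share of all tested genes was not counted beside it.

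Against the Rag array, both antigen-driven groups had more members called lower than called higher, as counted above beside all tested genes. The median member differed by -0.13 in RIP-OVAhi and -0.06 in OCS/LPS, beside 0.02 and 0.06 for all tested genes. The largest falls were again Slc49a4, at -3.50 (SE 0.28, adjusted p = 0.00128) and -3.08 (SE 0.28, adjusted p = 0.00201), and Slc16a5, at -3.39 (SE 0.23, adjusted p = 0.000799) and -3.73 (SE 0.23, adjusted p = 0.000521). Next came Slc6a19, at -2.14 (SE 0.35) and -2.08 (SE 0.35). Slc17a9 was lower by -1.74 (SE 0.26) and -1.58 (SE 0.26), and Slc30a4 by -1.74 (SE 0.18) and -1.23 (SE 0.18). Slc16a6 was lower by -1.85 (SE 0.24) and -1.0 (SE 0.24), the latter not called with the replicate number in the model. The iron carrier Slc11a2, which macrophages also use, was lower by -1.25 (SE 0.29, adjusted p = 0.036) and -1.23 (SE 0.29, adjusted p = 0.0361). Among the members higher than in Rag cells were Slc5a3 in RIP-OVAhi, by 1.74 (SE 0.22), and Slc43a3 in OCS/LPS, by 2.24 (SE 0.57). The call of Slc43a3 was lost with the replicate number in the model. Higher in both groups were Slc25a24, as given above, Slc35g1 (1.21 and 1.18), Slc39a4 (1.34 and 1.39), Slc39a1 (0.84 and 1.05) and Slc25a11 (0.82 and 0.86). So was Slc35d1 (1.36 and 0.98), whose other probe set differed by 0.21 and -0.01. The direction of Slc43a3 and Slc39a4 is partly set by the choice of members. The share of members lower than Rag that macrophage transcripts on the Rag array contribute was not tested.

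At the other end, 4 members varied by under 0.25 log2 units over all 7 arrays. They were the Golgi sodium-proton exchanger Slc9a8 (range 0.03), the non-carrier Slc2a4rg-ps (range 0.10), Slc10a7 (range 0.20) and the sugar-phosphate carrier Slc37a3 (range 0.21). Of the 35 calls in RIP-OVAhi against naive, 6 were made under every alternative in which the gene was tested: Slc16a5, Slc25a24, Slc30a1, Slc39a4, Slc49a4 and Slc5a3. Of the 34 in OCS/LPS against naive, 8 were: Slc16a5, Slc25a11, Slc25a24, Slc30a1, Slc36a4, Slc3a2, Slc43a3 and Slc49a4. Slc39a4 and Slc36a4 were not tested with the filter at log2 7, which they do not reach. Of the 30 in RIP-OVAhi against Rag, 3 were, and of the 27 in OCS/LPS against Rag, 2 were. No call was made under every such alternative in Rag against naive or in RIP-OVAhi against OCS/LPS. The direction of Slc16a5, Slc39a4 and Slc43a3 is partly set by the choice of members. How many calls of all tested genes hold in this way was not counted.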

How the data were processed

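Levels are the log2 expression values of 45101 Affymetrix probe sets on 7 arrays that the authors deposited. Per the submitters' processing notes they come from GCRMA, of a version not given in the sources used. They were used as they are. GCRMA corrects background from probe sequence and quantile-normalizes all arrays, so a shift common to most genes is hidden, and values under about 5 are near background. RNA was amplified in 2 rounds from 100 ng, per the labels' protocols. Probe sets with 1 gene symbol in the platform annotation (34958; 932 had several and 9211 none) were named, and 34754 matched RefSeq by Entrez identifier.

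For each of 18194 genes the probe set of highest mean was kept. The 8203 genes with log2 of at least 5 on at least 2 arrays were fitted with group means (limma 3.58.1, R 4.3.3; lmFit and eBayes, 3 residual and 2.93 prior degrees of freedom). Two-sided p-values were adjusted by Benjamini-Hochberg over these genes, with a call under 0.05; SE is the moderated standard error. The labels do not say that replicates were separate experiments, so p-values measure a spread between arrays that may be technical. The number of arrays limits the precision.

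The members, carrier classes and gene lists were chosen with earlier results of these data known. Classes and lists were described by counts and medians. Named are, per comparison, the 8 largest called rises and falls whose arrays did not overlap, up to 6 called members per class, a list of well-known carriers, and called members of the lists of carriers under other symbols and of the sodium-potassium pump. Replicate numbers are shared by the duplicated groups, and same-numbered arrays deviated together (r = 0.35 for naive and RIP-OVAhi, 0.13 for naive and OCS/LPS, 0.32 for RIP-OVAhi and OCS/LPS, over genes), so the numbers may pair the arrays; this comes from the data and not from the labels. Values are from the fit without this block, with the blocked p beside a named result whose call it changes. The fit was tested on simulated data with known changes. Alternatives are the replicate block, other level filters, centring, the mean of a gene's probe sets, a trended prior, the 4 arrays compared, and each array of the duplicated groups left out.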

Additional observations from a re-analysis of the deposited data

Results flagged for a closer look

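Slc5a3 differed between the antigen-driven groups by a test of the difference itself. RIP-OVAhi cells were 1.47 above naive cells and OCS/LPS cells 0.28 above them, a difference of 1.19 on the log2 scale.

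In 5 further carriers both RIP-OVAhi arrays lay below both naive arrays and both OCS/LPS arrays above them. For these, limma did not call the difference between RIP-OVAhi and OCS/LPS. These differences, RIP-OVAhi minus OCS/LPS, were -0.38 for the mitochondrial carrier Slc25a16, -0.17 for the glucose carrier Slc2a3, -0.24 for the acetyl-CoA carrier Slc33a1, -0.33 for Slc35f2 and -0.65 for the zinc and manganese importer Slc39a8. Slc39a8 met the level needed on just 1 OCS/LPS and 1 Rag array. The share of all tested genes in this order was not counted, so the count of 5 is no result about carriers.

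The red cell exchanger Slc4a1, left out by name, was above 5 on every array and at 8.28 on the Rag array, against at most 5.34 on a naive array. Other Slc genes left out of the members stood above the level of 5 on 1 array. On the Rag array the iron exporter Slc40a1 of macrophages was at 7.81, against at most 2.42. Slc16a4 was at 5.47 on that array. The aspartate-glutamate carrier Slc25a13 was at 5.79 and Slc35b2 at 5.11 on the array of OCS/LPS replicate 2, and Slc41a3 was at 5.25 on the array of RIP-OVAhi replicate 2. Csf1r (8.51), C1qb (7.42) and Alas2 (6.65), markers of macrophages and red cells, were higher on the Rag array than on any other. Not every macrophage marker was. The highest of the 8 macrophage and monocyte markers stood at 8.67 on the array of naive replicate 2 and at 8.51 on the Rag array. The part of such cells in the carrier values of the Rag array was not tested.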

How the results depend on the processing

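Among the members named by the rule above, no called value changed direction under any alternative. Other level filters, the trended prior and the fit of the 4 arrays leave the difference itself as it is. Leaving out 1 array cannot turn it where the arrays of the groups do not overlap. The directions of Slc38a9, Slc15a4, Slc25a15 and Slc25a44 were not checked in this way. The number of members called did move. The share of all tested genes called was not counted in the alternatives of this section, so these counts are no result about carriers. Leaving out 1 array of a duplicated group in turn gave 10 to 51 called members in RIP-OVAhi against naive (35 with all arrays), 9 to 45 in OCS/LPS against naive (34), 0 to 23 in Rag against naive (2), 0 to 3 in RIP-OVAhi against OCS/LPS (1), 5 to 49 in RIP-OVAhi against Rag (30) and 3 to 50 in OCS/LPS against Rag (27). Where 1 array of a group was left, its spread was taken from the remaining pairs. The high ends came from leaving out a naive array, the pair furthest apart, and the low ends from leaving out a RIP-OVAhi or OCS/LPS array. With only the 4 arrays compared, 20 members were called in RIP-OVAhi against naive, 19 in OCS/LPS against naive and 3 between these groups. With no filter on low values, 17 were called in OCS/LPS against naive, 18 in RIP-OVAhi against Rag and 13 in OCS/LPS against Rag, and the calls of Slc5a3 between RIP-OVAhi and OCS/LPS (adjusted p = 0.14) and of Slc25a24 in Rag against naive (0.0813) were lost. With the mean of all probe sets of a gene, 0 were called in Rag against naive and 0 in RIP-OVAhi against OCS/LPS. The cause of these shifts was not tested beyond the smaller number of arrays.

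With the replicate number as a block, 33 members were called in RIP-OVAhi against naive, 36 in OCS/LPS against naive, 1 in Rag against naive, 1 in RIP-OVAhi against OCS/LPS, and 20 in each antigen-driven group against Rag. Slc15a4, Slc25a15, Slc39a9, Slc50a1 and Slc7a1 lost their call in RIP-OVAhi against naive, with adjusted p from 0.0524 to 0.0674, and Slc25a27, Slc2a1 and Slc35g1 gained one, with 0.0171 to 0.0424. In OCS/LPS against naive, Slc38a9 and Slc39a1 lost their call, with adjusted p of 0.0721 and 0.057, and Slc25a17, Slc35e1, Slc35g1 and Slc39a6 gained one, with 0.0311 to 0.0425.

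Of 129 called differences, 43 had another probe set of the gene with a mean of 5 or more; in 34 all of these agreed in direction, and in 9 at least 1 did not (Slc12a7, Slc25a44, Slc35d1, Slc38a2 and Slc38a9). Arrays give no read depth, and a level under 5 bounds a gene more than it measures it.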
